A study of Rattus norvegicus with 20 samples.

Results

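Whisker follicle cells of EGFP rats were compared before transplantation into skin and after recovery from it, with 2 RNA-seq libraries on each side, that is 4 of the 20 libraries of the series. All 4 were of Sprague-Dawley rats of the green rat line SDTgN (act-EGFP)obsCZ-004, in which an actin promoter drives EGFP in most cells, and the donors of whisker tissue were at postnatal day 57. The cells before transplantation were clone 7, and the recovered cells were subclone 14, grown from follicles dissected out of skin grafts on nude mice, after the rat cells had been placed into newborn OF1 mouse skin that was then grafted. Both were grown on irradiated 3T3-J2 mouse fibroblasts, the feeder layer commonly used for rat and human keratinocytes, and EGFP-positive cells were sorted before RNA was prepared. The other 16 libraries were of bladder, trachea, vagina and thymus cells, again 2 before and 2 after in each culture, from rats of the same line that were all older than the whisker donors, at postnatal day 200 for trachea and vagina, a day later for bladder and younger than these for thymus. Their titles call them bulk cultures, although another label names the thymus cells before transplantation a clone, so that they differ from the whisker cells in donor age and cloning as well as in tissue. The methods of the study also state that the thymus cells came from frozen stock. They name the whisker control cells as an exception to the usual passage range of the cultures, so that passage may differ too. These cultures are used below only to show where the whisker change differed. The methods of the study describe the recovered cells as the transplanted ones cultured again, and the labels name them subclone 14. Whether the 2 libraries of a group came from separate animals, grafts or only separate dishes is not given in the sources used here. Subcloning, passage and transplantation cannot be told apart. Standard errors and p values measure only the spread between libraries of the same group, taken over all 20 libraries and not over the 4 whisker libraries alone.

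A whisker follicle is a large sensory hair follicle. Its bulge holds multipotent keratinocytes that can be cloned, grown for many passages, and returned to skin, where they take part in the hair cycle and give rise to the follicle sheaths, the hair shaft, the sebaceous gland and, when needed, the epidermis. In culture such cells stay in a basal, dividing state. Ligands of the EGF family hold them there, and contact, calcium and BMP signals drive them towards cornification, the terminal program that builds the barrier of the skin. Because they began as follicle cells, they serve in this study as the reference for epithelia of other origins that went through the same transplantation.

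The labelled cell type was checked first, as far as its markers could be paired with a symbol. Col17a1, a hemidesmosomal collagen of basal keratinocytes, stood at 5157 and 5133 CPM before, where CPM is the count scaled to the size of the library, and at 4856 and 4966 CPM after recovery. Only 3 of the 15 basal keratinocyte genes listed could be paired with a symbol, and 0 of them were called. Of the 4 follicle stem cell genes that could be paired, 0 were called. Tbx1 was at 154 and 135 CPM before and at 83.2 and 107 CPM after. It was thus lower in both recovered libraries, but its log2 fold change of -0.61 (limma voom, adjusted p = 0.0032) was under the fold threshold given below. Cd200 was at 16.4 and 17.3 CPM before and at 12.9 and 13.1 CPM after. The other members, Cd34 and Dkk3, were close to absent, with 1 and 0 reads before and 2 and 1 reads after for Dkk3. The summed level of the list, 170 and 152 CPM before and 96.3 and 121 CPM after, was therefore nearly all Tbx1 and Cd200. Genes of the Y chromosome were present in every library, Eif2s3y at 117 and 124 CPM before and 122 and 118 CPM after. Endothelial and immune genes were few and low. Their summed levels were 3.41 and 4.26 CPM before and 4.70 and 5.77 CPM after for the 2 endothelial genes, and 12.6 and 11.01 CPM before and 10.3 and 13.1 CPM after for the 4 immune genes. The 6 fibroblast genes, a mark of fibroblast or feeder RNA, summed to 30.6 and 62.4 CPM before and to 48.9 and 39.6 CPM after, so that the groups overlapped, and 0 of the 6 were called.

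Of 13302 genes tested with limma voom, 795 were called as changed, 286 higher and 509 lower after recovery. The call required a change of 2-fold or more together with a p value below 0.05 after Benjamini-Hochberg adjustment over all genes. The calls made up 5.98% of all genes tested, 2.15% higher and 3.83% lower, and the median log2 fold change of all genes was -0.0018. Among the higher genes 194 had a log2 fold change between 1 and 2, and 22 had one of 3 or more. Among the lower genes these numbers were 333 and 71. The whisker libraries of the 2 groups did not overlap in 62.9% of all genes, which is the background for every statement below that 2 groups did not overlap. All 795 called genes were among them, so that for a called gene such a statement describes the values and adds no support to the call. In RNA of whole cultures, fewer cells that express a gene and less RNA of it per cell cannot be told apart.

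**Figure D1:**
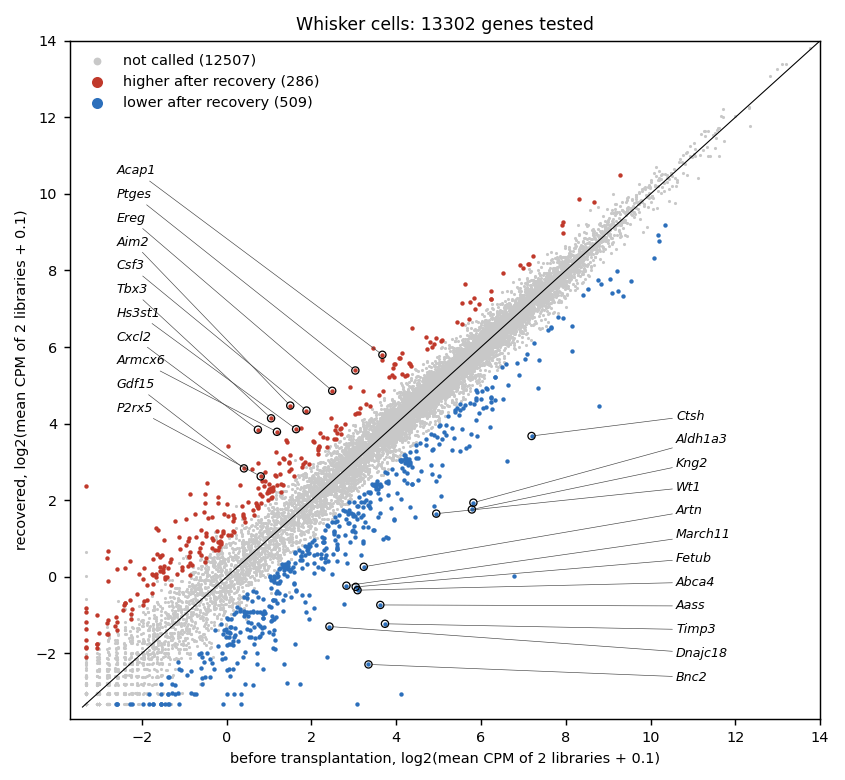
Level of each of the 13302 genes before transplantation (horizontal) and after recovery (vertical), as log2 of the mean CPM of 2 libraries plus 0.1, with the 286 genes called higher in red, the 509 called lower in blue and the diagonal as a line. The circled and named genes are 11 of the largest rises and the 12 largest falls among genes with a symbol and at least 5 CPM in both libraries of the higher group, and the largest falls lie farther from the diagonal than the largest rises.

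Only 2311 of the genes could be paired with a symbol, from lists that the study made of genes differing between whisker cells and some other culture, before or after transplantation. They were thus chosen partly on the libraries used here. The longer list runs in alphabetical order and was used here only in shortened form, so that 2011 of the 2311 symbols begin with A to F. Few genes with later initials could therefore be paired, and the counts of the gene groups below cover only the members that could. Of the genes with a symbol, 355 were called, 15.4% of them, 131 higher (5.67%) and 224 lower (9.69%), so that the gene groups below are read against these shares rather than against those of all genes.

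Of 14 genes of the EGF family and of the response to FGF and ERK signals that were tested, 6 rose after recovery and 0 fell, and the median log2 fold change of the list was 0.94, against -0.025 for all genes with a symbol. Between 6 and 8 of them were called as higher under the 13 alternatives of filter, tool, scaling and samples. Epiregulin (Ereg), a ligand of the EGF receptor, had 6.03 and 5.01 CPM before and 30.2 and 27.6 CPM after, a log2 fold change of 2.38 with a standard error of 0.20 and an adjusted p value of 2.84e-07. Amphiregulin (Areg), the ligand that keratinocytes release onto themselves, rose from 18.7 and 16.4 CPM to 56.8 and 57.8 CPM (log2 fold change 1.70, standard error 0.27, adjusted p = 0.000243). Epigen (Epgn), a further ligand of this family, rose from 14.6 and 15.8 CPM to 41.8 and 45.2 CPM (log2 fold change 1.52, standard error 0.16, adjusted p = 2.99e-06). For all 3 ligands both recovered libraries were above both libraries before transplantation. The ERK phosphatase Dusp5 was also called as higher, with a log2 fold change of 1.17 (adjusted p = 4.73e-07). The 8 genes of the list that were not called included the ligand Btc (log2 fold change -0.36) and the receptor Erbb3 (-0.37). The ERK phosphatases Dusp4 (-0.28) and Dusp6 (0.89) were among them too.

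Among the responding genes, Etv4, an ETS transcription factor induced by FGF and ERK signals, was at 16.5 and 17.0 CPM before and at 55.9 and 49.5 CPM after (log2 fold change 1.65, standard error 0.10, adjusted p = 9.41e-09). Phlda1, which is induced by growth factors and is also known from follicle stem cells, went from 55.1 and 59.1 CPM to 171 and 139 CPM, and its log2 fold change was 1.44 (standard error 0.14). The next list, immediate early genes and targets of YAP, had 4 of 12 genes higher and 0 lower, with a median log2 fold change of 0.56. Dusp1, a phosphatase that switches MAP kinases off, was at 255 and 237 CPM before and at 597 and 641 CPM after. Its log2 fold change was 1.33, with a standard error of 0.10 and an adjusted p value of 9.84e-08. Csrnp1, a nuclear protein of the early response, rose from 51.5 and 55.2 CPM to 149 and 142 CPM, and Arc, an early gene best known from neurons, from 2.00 and 2.48 CPM to 8.06 and 7.33 CPM. Egr4 was called on 5 and 3 reads before against 12 and 14 reads after, and lost its call when any of the 4 libraries was left out, for example with an adjusted p value of 0.122 without the second library before transplantation. Atf3, a stress-induced transcription factor from the list of endoplasmic reticulum and amino acid stress genes, rose from 94.6 and 87.3 CPM to 249 and 238 CPM, and was the only gene of the 14 on that list that was called as higher. Creb3l2, a membrane-bound transcription factor of the secretory pathway, was the only one called as lower, with a log2 fold change of -1.10. The calls on that list were thus no larger a share than the 15.4% of all genes with a symbol.

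**Figure D2:**
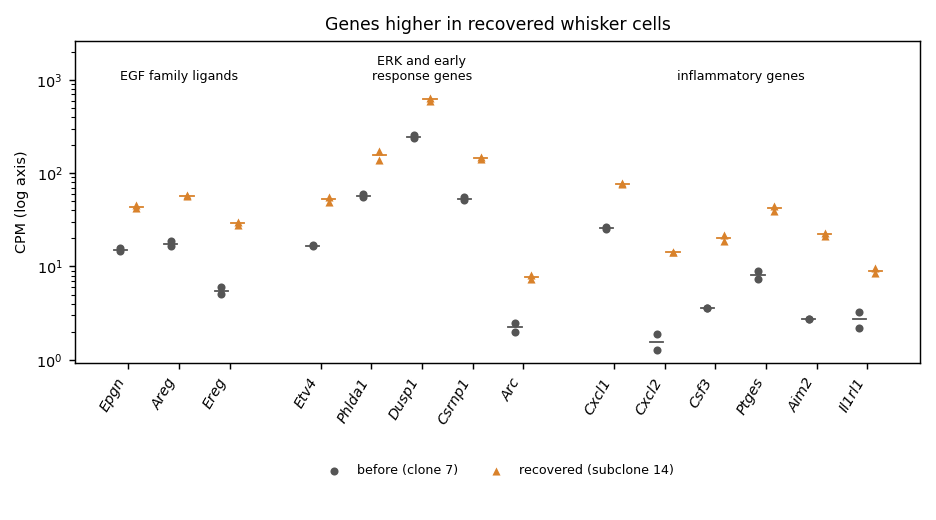
Level in CPM, on a log axis, of 14 genes called as higher in recovered whisker cells, in each of the 2 libraries before transplantation (grey circles, clone 7) and the 2 recovered libraries (orange triangles, subclone 14), with a line at each mean. In each gene both orange triangles lie above both grey circles, from Arc, which rose from about 2 CPM, to Dusp1, which was above 200 CPM in every library.

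Genes of the inflammatory list moved in both directions, with 9 of 41 higher, 4 lower and a median log2 fold change of 0.02. The higher genes included signals to neutrophils and their growth factor. Cxcl2, a chemokine that attracts neutrophils, had 1.87 and 1.26 CPM before and 14.3 and 14.2 CPM after, a log2 fold change of 3.18 with a standard error of 0.45 and an adjusted p value of 7.55e-05. Cxcl1, a chemokine that acts on the same receptor, rose from 26.7 and 25.0 CPM to 76.2 and 77.5 CPM (log2 fold change 1.57, standard error 0.15, adjusted p = 1.29e-06). Csf3, the growth factor of granulocytes, rose from 3.58 and 3.61 CPM to 21.8 and 18.5 CPM (log2 fold change 2.48, standard error 0.40, adjusted p = 0.000248). The levels of all 3 were separate between the groups.

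Other members of the list act inside the cell or at its surface. Aim2, a sensor of DNA in the cytosol that activates caspase-1, had 2.74 and 2.72 CPM before and 23.0 and 21.2 CPM after, with a log2 fold change of 3.00 (standard error 0.16, adjusted p = 3.09e-09). Ptges, the enzyme that makes prostaglandin E2, rose from 8.86 and 7.36 CPM to 44.1 and 39.5 CPM (log2 fold change 2.36, standard error 0.15, adjusted p = 1.31e-08). Ptgs1, the cyclooxygenase that acts before it, was at 2.29 and 2.34 CPM before and at 4.74 and 3.56 CPM after and was not called, since its log2 fold change of 0.81 was under 1. Without the second recovered library it was called, with a log2 fold change of 1.03. Il1rl1, the receptor of interleukin 33, was at 2.20 and 3.28 CPM before and at 8.43 and 9.58 CPM after, and its call was lost without the first library before transplantation (adjusted p = 0.0901). Bcl3 rose from 16.3 and 14.2 CPM to 43.7 and 50.15 CPM (log2 fold change 1.62, adjusted p = 1.53e-06). In the other direction, Cxcl14, a chemokine of resting epithelia, had 16 and 10 reads before and 1 and 1 read after. The remaining lower genes of the list were Il1f10 (log2 fold change -2.09, adjusted p = 1.22e-06), Duoxa2 (-1.43, adjusted p = 0.000149) and Il1r2 (-1.09, adjusted p = 8.01e-08).

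The promoters of the higher inflammatory genes are shown because these genes rose together and because 2 of them, Cxcl1 and Cxcl2, lie close to each other on chromosome 14. RefSeq promoters of the GRCr8 assembly, from 250 bases before to 50 bases after the start of the gene, were found for 6 of the 9 genes. The consensus motif of NF-kB was searched on both strands, and matches, which overlap each other where there is more than 1, stand in capitals. It was found in 3 of the 6 promoters, all shown here, and in 7.51% of all 33469 promoters of the same length. Among genes named by the rule given below whose promoter was found, it was in 4 of 21 higher genes (19%) and in 7 of 47 lower genes (14.9%). A match was thus not confined to genes that rose. The sequences run 5′ to 3′ along the gene, which lies on the minus strand in each case, and cover chr14:17479272-17479571 for Cxcl1, chr14:17467206-17467505 for Cxcl2 and chr1:88613506-88613805 for Bcl3, which encodes a nuclear partner of NF-kB.
Cxcl1: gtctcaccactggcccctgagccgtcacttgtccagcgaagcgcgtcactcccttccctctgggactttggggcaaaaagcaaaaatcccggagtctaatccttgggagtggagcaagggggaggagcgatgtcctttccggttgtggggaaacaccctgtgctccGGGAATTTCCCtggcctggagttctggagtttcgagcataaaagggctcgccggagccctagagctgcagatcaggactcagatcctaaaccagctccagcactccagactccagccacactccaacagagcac
Cxcl2: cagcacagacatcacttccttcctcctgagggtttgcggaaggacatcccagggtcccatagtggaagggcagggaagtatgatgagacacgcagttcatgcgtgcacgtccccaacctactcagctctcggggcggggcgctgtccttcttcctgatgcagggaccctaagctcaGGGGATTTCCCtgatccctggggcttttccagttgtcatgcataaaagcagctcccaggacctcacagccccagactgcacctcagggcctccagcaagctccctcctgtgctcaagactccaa
Bcl3: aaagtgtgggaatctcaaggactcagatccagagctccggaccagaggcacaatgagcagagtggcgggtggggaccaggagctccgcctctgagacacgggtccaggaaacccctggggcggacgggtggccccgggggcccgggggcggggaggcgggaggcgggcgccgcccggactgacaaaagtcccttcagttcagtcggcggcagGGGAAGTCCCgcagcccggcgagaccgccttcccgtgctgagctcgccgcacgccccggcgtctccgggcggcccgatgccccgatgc
The stretch in capitals began 84 bases before the start of the gene in Cxcl1, 74 bases before it in Cxcl2 and 38 bases before it in Bcl3. The motif and the genes were chosen with the changes known, so that these matches describe the sequence and test nothing, and binding was not measured. The promoters of Aim2, Il1rl1 and Ptges held no match in this window.

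Interferon genes had 2 of 22 members higher and 0 lower, although their median log2 fold change was 0.78. Calls in either direction were thus a smaller share than the 15.4% of all genes with a symbol. Dhx58, a helper of the RNA sensors of the RIG-I family, rose from 8.11 and 8.11 CPM to 19.0 and 18.7 CPM (log2 fold change 1.21, standard error 0.12, adjusted p = 2.02e-06). Ifit2, a protein induced by interferon that binds viral RNA, had 3 and 7 reads before and 54 and 49 reads after. Most of the other members were at low levels, and the whole list summed to 73.2 and 72.1 CPM before and 87.7 and 86.3 CPM after.

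Of 48 genes of the cell cycle and of DNA replication, 3 were called as higher and 0 as lower, a share of 6.25% that is near the 5.67% of all genes with a symbol. The median log2 fold change of the list was 0.42, with 42 values above 0. The 3 were Cdc6 and Cdt1, which load the replicative helicase onto origins, and Dscc1, which helps to join sister chromatids. Cdc6 went from 1.79 and 1.59 CPM to 5.85 and 5.24 CPM. Cdt1 was at 3.41 and 3.23 CPM before and at 8.15 and 6.39 CPM after, and Dscc1 at 2.74 and 3.09 CPM before and at 6.45 and 5.77 CPM after. Each of these calls was lost when single libraries were left out, with adjusted p values of 0.0507 for Cdc6, 0.11 for Cdt1 and 0.142 for Dscc1 without the first library before transplantation. The number of called members ranged from 0 to 4 over the alternatives. Among inhibitors of the cell cycle and targets of p53, 1 of 15 rose and 1 fell, a share of calls below the 15.4% of all genes with a symbol. Gdf15, a secreted stress signal that p53 and other factors induce, rose from 1.33 and 1.12 CPM to 7.41 and 6.63 CPM (log2 fold change 2.49, standard error 0.57, adjusted p = 0.00418). Cdkn2b, an inhibitor of CDK4 and CDK6 induced by TGF-beta, fell from 56.8 and 63.4 CPM to 29.3 and 27.7 CPM (log2 fold change -1.07, standard error 0.16, adjusted p = 0.000146).

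Genes of epidermal differentiation were lower after recovery in 10 of 31 cases and higher in 2, with a median log2 fold change of -0.51. Suprabasin (Sbsn), a secreted protein of the upper epidermis, was at 567 and 516 CPM before and at 169 and 171 CPM after, a log2 fold change of -1.67 with a standard error of 0.13 and an adjusted p value of 2.06e-07. Calml3, a calmodulin-like protein of differentiating keratinocytes, was at 94.6 and 89.8 CPM before and at 24.1 and 26.1 CPM after (log2 fold change -1.88, standard error 0.12, adjusted p = 1.28e-08). Endou, an endoribonuclease of terminally differentiating cells, went from 14.6 and 12.4 CPM to 2.21 and 1.68 CPM (log2 fold change -2.80, standard error 0.25). Pla2g2f, the secreted phospholipase of the upper epidermis, and Dsc1, the desmosomal cadherin of the granular layer, had log2 fold changes of -2.13 and -1.28. In all of these the groups did not overlap. Padi1, which converts arginine of keratins and filaggrin to citrulline, was called in the other direction on 14 and 11 reads before and 31 and 43 reads after. The other gene called as higher was Csta, with a log2 fold change of 1.29 (adjusted p = 0.00138). The summed level of the 31 genes was 4322 and 3789 CPM before and 2504 and 2578 CPM after.

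Junction genes had 4 of 17 members lower and 1 higher, and a median log2 fold change of -0.07. Claudin 1 (Cldn1), which seals the tight junctions of the epidermis, fell from 621 and 585 CPM to 168 and 183 CPM (log2 fold change -1.78, standard error 0.20, adjusted p = 9.52e-06). Cdh2, the N-cadherin of mesenchymal and neural cells, fell from 35.4 and 31.6 CPM to 10.8 and 13.4 CPM. Cldn7 was called as lower on 5 and 7 reads before and 0 reads in both recovered libraries, and its mean before was 2.05 times a floor of 3 counts per library. Cldn17 was called as higher on 9 and 2 reads before and 27 and 23 reads after, a call that was lost without the second library before transplantation (adjusted p = 0.13). The single called gene of the hair shaft and inner root sheath, of 4 tested, was Dlx3, a homeobox factor of the hair matrix and the upper epidermis. It was at 18.2 and 16.5 CPM before and at 8.52 and 7.94 CPM after (log2 fold change -1.08, standard error 0.12, adjusted p = 5.17e-06). Simple keratins Krt8 and Krt18 had few reads, 20 and 15 before and 1 and 8 after for Krt8, and 8 and 11 before and 3 and 0 after for Krt18. Both were called as lower, and without the second recovered library the adjusted p values were 0.051 for Krt8 and 0.33 for Krt18.

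Genes of the extracellular matrix were lower in 8 of 28 cases and higher in 1, with a median log2 fold change of -0.53. Col5a2, a chain of a fibril-forming collagen, was at 1092 and 1062 CPM before and at 295 and 349.6 CPM after, with a log2 fold change of -1.75 (standard error 0.09, adjusted p = 1.19e-09). Loxl2, which cross-links collagen, fell from 67.2 and 64.2 CPM to 22.3 and 19.9 CPM (log2 fold change -1.64, standard error 0.14). Col8a1, a short-chain collagen, fell from 16.2 and 14.4 CPM to 2.72 and 2.78 CPM (log2 fold change -2.47, standard error 0.43, adjusted p = 0.000498). Has3, which makes hyaluronan, was the gene that rose, from 1.08 and 0.75 CPM to 3.18 and 2.66 CPM. The fibroblast collagens Col1a1 and Col3a1 were not among the called genes, Col1a1 at 18.5 and 33.2 CPM before and at 23.9 and 22.8 CPM after. Acan, the core protein of a large proteoglycan, was called as lower on 9 and 7 reads before and 1 and 0 reads after, and lost its call without the second recovered library (adjusted p = 0.138). The number of matrix genes called as lower ranged from 5 to 8 under the alternatives.

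Of 19 matrix proteases and inhibitors, 5 were lower and 0 higher. Timp3, an inhibitor of metalloproteinases that stays bound to the matrix, was at 11.3 and 15.1 CPM before and at 0.368 and 0.287 CPM after, a log2 fold change of -5.24 with a standard error of 0.39 and an adjusted p value of 9.46e-08. Its recovered libraries held 8 and 7 reads. Adamts9, a protease of proteoglycans, fell from 42 and 35 reads to 5 and 9 reads. The other 3 were on few reads or near the fold threshold. Adamts12 had 18 and 22 reads before and 4 and 7 after, and without the first recovered library its adjusted p value was 0.0514. Adam19 had 4 and 5 reads before and 0 in both recovered libraries, and its mean before was 1.54 times a floor of 3 counts per library. The Adam19 call was lost without the second library before transplantation, with a log2 fold change of -3.11. Adamts7 had a log2 fold change of -1.04, and of -0.99 without the second library before transplantation.

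BMP signalling genes were lower in 5 of 14 cases and higher in 1, with a median log2 fold change of -0.26, and these numbers of calls did not change under any of the 13 alternatives. Of the ligands, Bmp4 was at 9.65 and 9.51 CPM before and at 2.62 and 2.62 CPM after (log2 fold change -1.86, standard error 0.21, adjusted p = 8.38e-06). Bmp8b fell from 8.61 and 6.75 CPM to 2.12 and 2.25 CPM (log2 fold change -1.80, standard error 0.23), and Bmp6, a ligand of the upper epidermis and of the resting follicle, from 5.99 and 5.34 CPM to 2.35 and 1.97 CPM (log2 fold change -1.40, standard error 0.21). The ligands Bmp2, Bmp3, Bmp8a and Inhba were not called, with log2 fold changes of -0.21, 0.56, 0.78 and 0.25. Of the secreted proteins that bind members of the family, chordin (Chrd), an antagonist of BMP ligands, fell from 8.90 and 11.9 CPM to 4.01 and 3.60 CPM, and Fstl1, a follistatin-like protein, from 124 and 115 CPM to 41.1 and 36.0 CPM. The gene called as higher was Bambi, a membrane protein that resembles the receptors and damps their signal, with a log2 fold change of 1.29 (adjusted p = 0.000206).

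**Figure D3:**
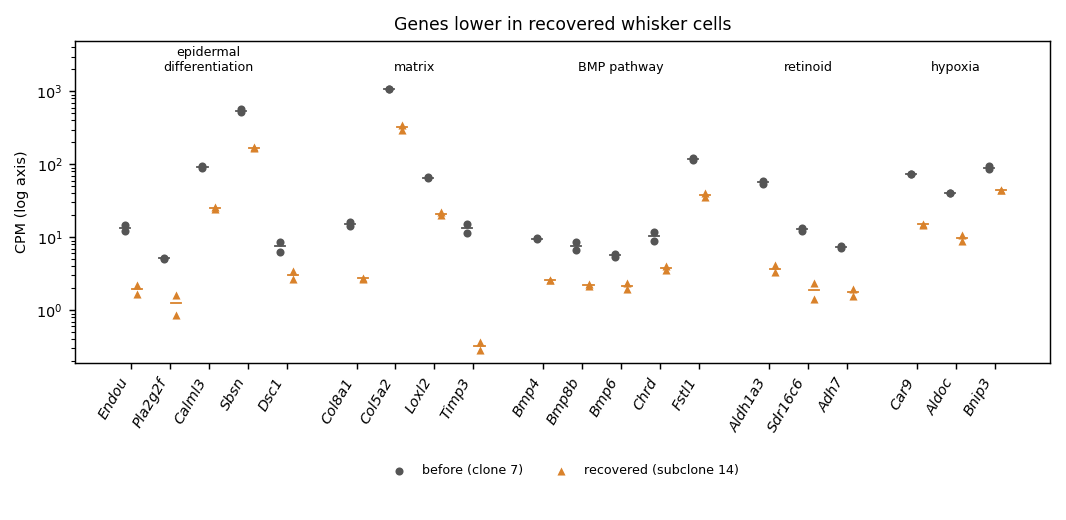
Level in CPM, on a log axis, of 20 genes called as lower in recovered whisker cells, in each of the 2 libraries before transplantation (grey circles, clone 7) and the 2 recovered libraries (orange triangles, subclone 14), with a line at each mean. In each gene both orange triangles lie below both grey circles, and Timp3, at 0.368 and 0.287 CPM after recovery, shows the largest drop.

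In the Wnt, Hedgehog, ectodysplasin and Notch pathways together, 6 of 42 genes were called (14.3%), a share near the 15.4% of all genes with a symbol. In the Wnt pathway 2 of 21 genes fell and 0 rose. Lgr4, a receptor of R-spondin that strengthens Wnt signals, was at 152 and 179 CPM before and at 47.2 and 53.4 CPM after (log2 fold change -1.72, standard error 0.12, adjusted p = 6.23e-08). The ligand gene Wnt3 was called on 31 and 21 reads before and 11 and 9 after, and without the first library before transplantation its adjusted p value was 0.123. In the Hedgehog pathway 1 of 8 genes fell, and none rose. This was Evc2, which sits at the base of the cilium and passes the signal on, from 31.5 and 29.6 CPM to 5.57 and 5.61 CPM (log2 fold change -2.45, standard error 0.12, adjusted p = 6.23e-10). In the ectodysplasin pathway, which starts hair placodes, the ligand Eda rose from 4.70 and 3.37 CPM to 11.4 and 11.8 CPM (log2 fold change 1.52, standard error 0.20), the only call among 4 genes. In the Notch pathway Numbl, a relative of the Notch inhibitor Numb, had a log2 fold change of -1.02 and Mfng, which adds sugars to Notch, one of 1.54. The Mfng call was lost without the first library before transplantation (adjusted p = 0.323), and that of Numbl without the second, with a log2 fold change of -0.99.

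Transcription factors of development changed in both directions, 4 higher and 4 lower of 31, with a median log2 fold change of 0.01. Tbx3, a T-box repressor that is expressed in many epithelial progenitors, was at 1.83 and 2.11 CPM before and at 17.6 and 17.5 CPM after, an 8.90-fold difference of the means (log2 fold change 3.15, standard error 0.26, adjusted p = 2.53e-07). Wt1, a zinc finger factor of kidney, gonad and mesothelium, went the other way, from 28.7 and 32.8 CPM to 3.13 and 2.95 CPM (log2 fold change -3.33, standard error 0.15, adjusted p = 4.07e-10). Eomes, another T-box factor, rose from 8 and 7 reads to 66 and 54 reads. Sox11 had 2 and 6 reads before and 0 reads after. Its mean before was 1.40 times a floor of 3 counts per library, but its first library before transplantation lay below that floor, so that the size of the fall is not known. The Sox11 call was lost in the fit of only the 4 whisker libraries (adjusted p = 0.0514) and without the second library before transplantation.

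Of the 9 sebaceous gland genes tested, 2 were called as higher and 0 as lower. Fa2h, which makes hydroxylated lipids, rose from 38 and 32 reads to 82 and 81 reads. Without the first library before transplantation its adjusted p value was 0.0633. Among genes with a symbol and at least 5 CPM in both libraries of the higher group, other large rises beside those already given were of Armcx6, Hs3st1, Acap1 and P2rx5. Armcx6, of the armadillo repeat family on the X chromosome, rose from 2.25 and 2.11 CPM to 15.1 and 12.4 CPM. Hs3st1 adds a sulfate to heparan chains, and it rose from 3.08 and 2.95 CPM to 15.4 and 13.3 CPM. Acap1, a regulator of vesicle traffic, rose from 13.8 and 11.6 CPM to 54.4 and 56.8 CPM, and P2rx5, a channel opened by ATP, from 1.75 and 1.55 CPM to 6.4 and 5.73 CPM.

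The largest fall in the same set was that of Bnc2, a zinc finger protein related to basonuclin of basal keratinocytes. It was at 9.98 and 10.2 CPM before, from 240 and 217 reads, and was left with 1 and 4 reads after recovery (log2 fold change -6.46, standard error 0.71, adjusted p = 6.29e-06). Its relative Bnc1, the basonuclin of basal cells, was not called, with a log2 fold change of -0.11. Cathepsin H (Ctsh), a lysosomal protease, fell from 148 and 145 CPM to 12.8 and 12.7 CPM, 11.5-fold by the means (log2 fold change -3.52, standard error 0.14, adjusted p = 7.65e-11). The kininogen gene Kng2 fell from 58.8 and 51.3 CPM to 3.87 and 2.70 CPM, and the related fetuin gene Fetub from 9.61 and 6.70 CPM to 0.691 and 0.778 CPM. Aass, which begins the breakdown of lysine, was at 12.7 and 11.8 CPM before and at 0.552 and 0.45 CPM after. The ligand artemin (Artn), a growth factor of sensory neurons, fell from 9.69 and 8.95 CPM to 1.01 and 1.19 CPM. The other falls among the 12 were those of Dnajc18, Abca4 and March11, with log2 fold changes between -4.05 and -3.18. In each of these genes the groups did not overlap, which the rule required.

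Retinoid enzymes were lower in 3 of 11 cases and higher in 1, and 10 of the 11 had a log2 fold change below 0 (median -0.57). Aldh1a3, which makes retinoic acid, was at 52.9 and 59.9 CPM before and at 4.14 and 3.32 CPM after (log2 fold change -3.92, standard error 0.23, adjusted p = 7.25e-09). Sdr16c6, a dehydrogenase related to those that oxidize retinol, fell from 12.3 and 13.2 CPM to 1.43 and 2.33 CPM, and Adh7, an alcohol dehydrogenase that accepts retinol, from 7.19 and 7.59 CPM to 1.57 and 1.97 CPM. Aldh1a7 was called as higher on 7 and 10 reads before and 23 and 28 after, a call that was lost without the first library before transplantation (adjusted p = 0.137). Among 16 genes of glycolysis and hypoxia 3 fell and 0 rose. Car9, the carbonic anhydrase that low oxygen induces, was at 74.2 and 74.0 CPM before and at 14.7 and 15.4 CPM after (log2 fold change -2.30, standard error 0.12, adjusted p = 2.6e-09). Aldoc, an aldolase, fell from 40.04 and 39.97 CPM to 10.7 and 8.92 CPM, and Bnip3, a mitochondrial protein also induced by low oxygen, from 94.6 and 86.4 CPM to 44.3 and 44.7 CPM. Bnip3 lay near the fold threshold, with a log2 fold change of -0.96 without the first library before transplantation. Of 11 genes of cholesterol and fatty acid synthesis, 0 were called, among them Dhcr7 at 322 and 319.8 CPM before and at 285 and 262 CPM after.

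**Figure D4:**
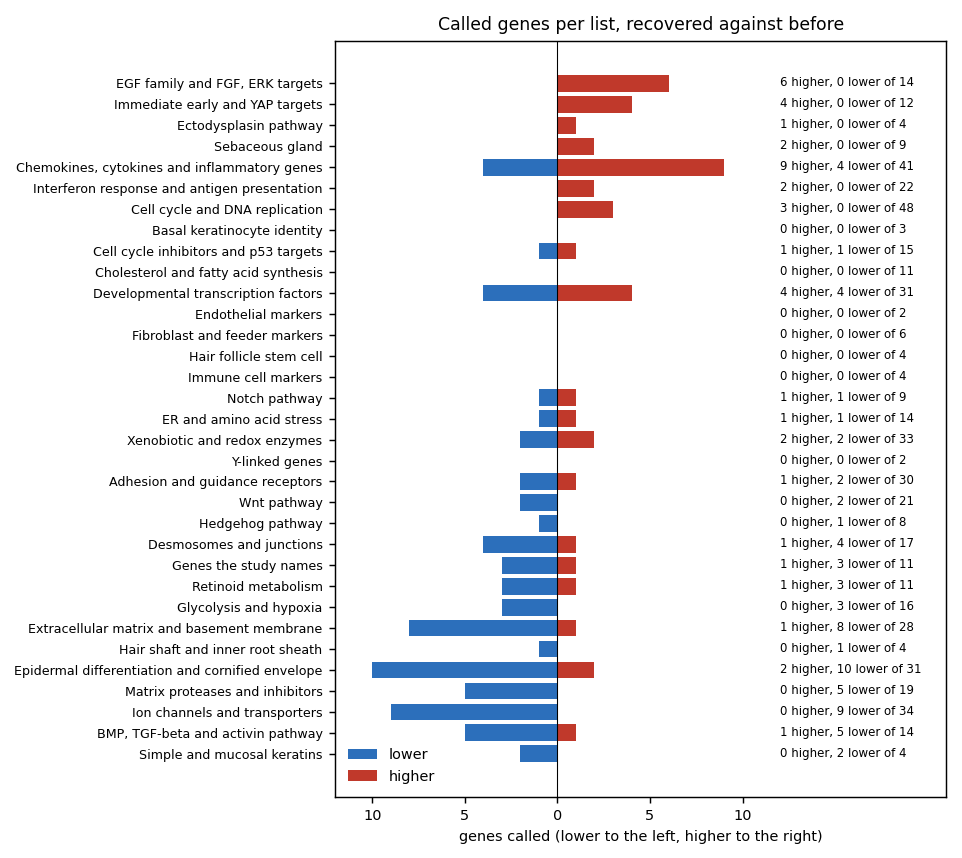
Number of genes called as higher (red, to the right) and lower (blue, to the left) after recovery in each of 33 gene lists, with the number tested at the right. The list with the most genes called as higher is that of inflammatory genes (9 of 41), and the list with the most genes called as lower is that of epidermal differentiation (10 of 31).

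Of 23 genes that the study itself names, 11 could be paired with a symbol, 1 was called as higher and 3 as lower. These were Ptges, Krt8, Krt18 and Wnt3, described above. The number called as lower ranged from 0 to 3 under the alternatives. The list was put together here and leaves out other genes that the study names, such as Nkx2-1 and Hr. The study named some of its members on these samples and others on microarrays, PCR or staining, so that the list is no independent evidence of a direction. Chst11 was at 33.4 and 34.4 CPM before and at 22.8 and 17.3 CPM after, with a log2 fold change of -0.77 that stayed under the fold threshold. Itgb8, an integrin that activates TGF-beta, was at 42.4 and 41.0 CPM before and at 32.2 and 34.8 CPM after and was not called. Krt4 had between 9 and 16 reads in each library, and Isl1, Dkk3 and Foxa1 had at most 6, so that no change could be shown at this depth.

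The whisker culture had fewer genes called than any of the other 4 under the same rule, where the share of genes called was 11.8% in vagina, 12.4% in trachea, 15.4% in thymus and 21.1% in bladder, against the 5.98% given above. These comparisons share no libraries. Of the 795 genes called in whisker cells, 224 were called in the same direction in bladder, which was 28.2% of the whisker list and 7.99% of the bladder list. In trachea these were 210 genes (26.4% and 12.7%), in vagina 193 (24.3% and 12.3%) and in thymus 147 (18.5% and 7.19%). Genes called in the opposite direction numbered 98 in trachea, 146 in vagina, 188 in bladder and 264 in thymus. In all 4 other cultures, 16 of the 795 genes were called in the same direction as in whisker cells, 3 higher and 13 lower, and 101 of the 795 were called in none of them. The matching shares over all genes tested were not computed, so the counts of 16 and 101 have no background here. Timp3 was the only one of the 23 genes circled in the plot of gene levels that was called lower in all 5 cultures, with log2 fold changes of -1.54 in thymus, -2.83 in vagina, -3.15 in trachea and -3.16 in bladder.

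The difference itself was tested by setting the whisker change against the mean change of the other 4 cultures. At the same thresholds this contrast called 1506 genes, 11.3% of all tested. Of the 795 genes called in whisker cells, 541 (68.05%) were also called in this contrast with the same sign, 206 higher and 335 lower, and 5 with the opposite sign. The whisker change is part of both contrasts, so that calls of the same sign are favoured by construction and this overlap is no separate evidence. Among genes with a symbol that were called in both contrasts and reached 5 CPM in both libraries of the higher whisker group, Cxcl2, Csf3 and Cxcl1 had 3 of the 6 largest positive differences. The rise of Ereg also exceeded the mean of the others by 1.93 on the log2 scale (adjusted p = 2.28e-06), although Ereg rose in bladder as well, with a log2 fold change of 3.23 there, against -0.48 in trachea, 0.07 in vagina and -1.03 in thymus. For the rise of Tbx3 no difference was shown (0.60, adjusted p = 0.139), but the others were far apart, with log2 fold changes of 5.85 in thymus, 3.57 in trachea, 0.61 in vagina and 0.17 in bladder. The fall of Bmp8b differed from the mean of the others by -0.02 (adjusted p = 0.955), a mean of log2 fold changes from -3.04 in vagina to -0.27 in bladder, and that of Lgr4 by -1.76 (adjusted p = 9.96e-08). For Fstl1 the difference from the mean was -0.30 (adjusted p = 0.18), but its log2 fold change was -3.83 in trachea, -2.08 in bladder and -2.03 in vagina against 2.61 in thymus (adjusted p = 5.9e-08).

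**Figure D5:**
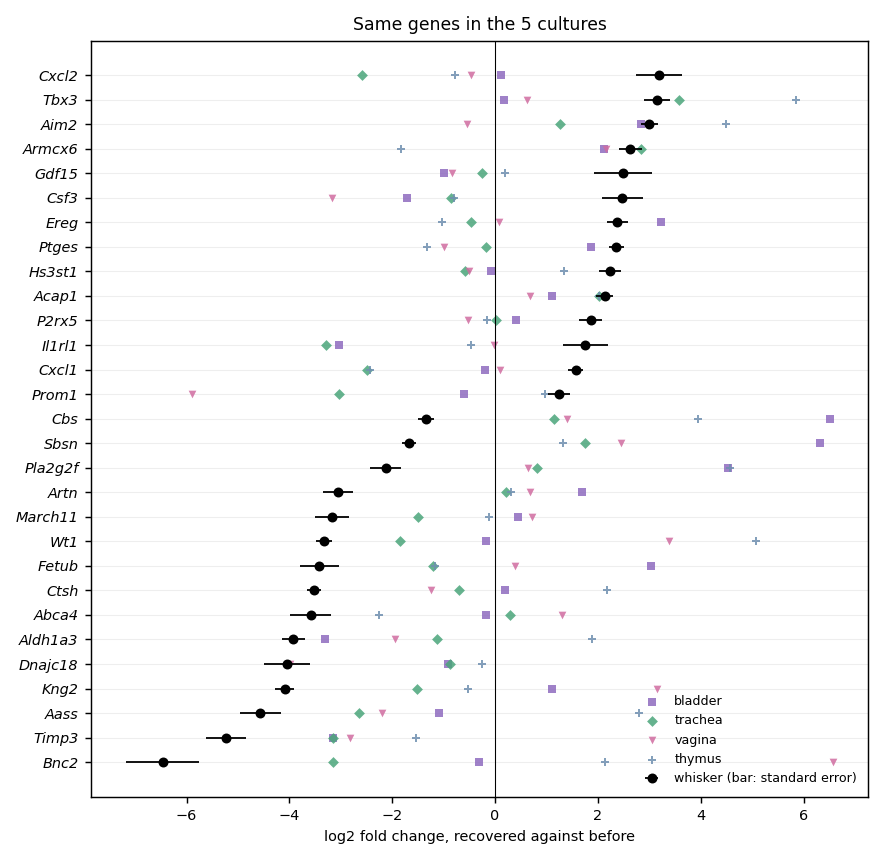
Log2 fold change, recovered against before, of 29 genes in whisker cells (black circles with standard error) and in bladder, trachea, vagina and thymus cells (coloured symbols), for the 23 genes circled in the plot of gene levels and the 12 with the largest differences from the other cultures among genes with a symbol that were called in both contrasts at the same minimum of 5 CPM, 6 of which are in both sets. Timp3 lies below 0 in all 5 cultures, while Sbsn, Cbs and Pla2g2f lie below 0 in whisker cells and above 0 in the 4 others. The values of Pla2g2f in trachea and vagina and that of Cbs in trachea were not called.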

How the data were processed

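RNA of EGFP-positive cells was sequenced as stranded poly(A) libraries, after the 2 samples of best RNA quality had been picked per group. Per the labels, the authors trimmed reads with cutadapt 1.8, aligned them with STAR 2.5.2b to Rnor 6.0 and counted them per Ensembl gene with HTSeq 0.6.1, and the deposited values are raw counts without normalization. The strand setting of the counting is not given in the sources used here, so reads of a gene and of an overlapping antisense gene may not be separated, and reads with several alignments (12038442 to 15538663 per whisker library) were not counted, which lowers genes with near-identical copies. The 5 tally lines of each file were left out. Whisker libraries held 21678751 to 25293172 reads on genes, at which 3 counts are 0.123 to 0.141 CPM. This floor covers counting error only.

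TMM scaling factors and CPM were computed from the counts (edgeR 4.0.16). A gene was tested if it reached 1 CPM in at least 1 of 20 samples, as 13302 of 32494 did. Following the methods of the study, limma 3.58.1 voom (R 4.3.3) was fitted to all libraries with 1 mean per group (10 groups), which left 10 residual degrees of freedom. All adjusted p values are Benjamini-Hochberg values over all genes tested. With 2 against 2, an exact permutation test cannot go below p = 0.33. The 2 libraries of each whisker group differed by more than sampling noise (mean chi-square per gene 8.57 before and 9.49 recovered, where counting error alone gives about 1), so neither was taken for a repeat reading of the other. This does not show that they came from separate animals, grafts or dishes.

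Gene symbols came from the identifiers paired in the study's supplementary lists, of which only the pairing was used. Named were, among genes with a usable symbol, the 12 largest rises and 12 largest falls with at least 5 CPM in both libraries of the higher group and no overlap, up to 5 called genes of each list (2 where none was called), the genes the study names, and the 6 largest differences in each direction from the other cultures. The rule and the 34 lists were chosen with earlier results of these data known. Some genes that the rule selects are not reported here. Bnc1, Bcl3, Bambi, Dusp5, Csta, Il1f10, Il1r2, Duoxa2 and the members of the EGF and BMP lists that were not called are named outside the rule, after their values were seen. None of the 6 melanocyte genes listed could be paired. Genomic positions on Rnor 6.0 are not given.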

Additional observations from a re-analysis of the deposited data

Results flagged for a closer look

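The whisker change differed from the mean change of the other 4 cultures in 1506 genes by the interaction contrast of the limma model, 662 in the positive and 844 in the negative direction. The 12 genes given here are the 6 largest differences in each direction among genes with a symbol that were called in this contrast and in whisker cells and had at least 5 CPM in both libraries of the higher whisker group. Some genes without a symbol had larger ones, such as ENSRNOG00000030418 (-10.72) and ENSRNOG00000017283 (3.77). Each value is a difference of log2 fold changes, whisker minus the mean of the others.

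Among positive differences, Cxcl2 had one of 4.11 (adjusted p = 3.7e-06) and Csf3 one of 4.11 (adjusted p = 1.18e-06). Csf3 had a log2 fold change of 2.48 in whisker cells and of -3.18 in vagina, -1.72 in bladder, -0.85 in trachea and -0.79 in thymus. Il1rl1 had a difference of 3.46 (adjusted p = 3.3e-05), and its whisker call was lost without the first library before transplantation (adjusted p = 0.0901). Prom1, the gene of the membrane protein prominin, had one of 3.39 (adjusted p = 1.01e-08), with 4.53 and 4.31 CPM in whisker cells before and 11.1 and 9.91 CPM after, and log2 fold changes of -5.90 in vagina, -3.04 in trachea, -0.61 in bladder and 0.96 in thymus. Gdf15 had a difference of 2.96 (adjusted p = 0.000865) and Cxcl1 one of 2.82 (adjusted p = 1.86e-09).

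Among negative differences, Bnc2 had one of -7.77 (adjusted p = 1.47e-06). It fell by 6.46 on the log2 scale in whisker cells, and its log2 fold change was 6.57 in vagina and 2.14 in thymus, -0.31 in bladder, and -3.15 in trachea, where it fell as well (adjusted p = 0.0104). Wt1 had a difference of -4.93 (adjusted p = 6.29e-09), with log2 fold changes of 3.39 in vagina and 5.07 in thymus, -0.18 in bladder, and -1.85 in trachea (adjusted p = 0.0118). Pla2g2f had one of -4.77 (adjusted p = 7.13e-06) and Sbsn one of -4.63 (adjusted p = 1.72e-10). Both had log2 fold changes above 0 in all 4 other cultures, from 0.65 to 4.56 for Pla2g2f and from 1.31 to 6.33 for Sbsn. Those of Pla2g2f in trachea (0.81, adjusted p = 0.574) and vagina (0.65, adjusted p = 0.671) were not called. Kng2 had a difference of -4.65 (adjusted p = 2.69e-07). Cbs, an enzyme that turns homocysteine into cystathionine, had one of -4.61 (adjusted p = 8.63e-07), with 37.6 and 32.0 CPM in whisker cells before and 14.6 and 12.8 CPM after and a log2 fold change of 6.51 in bladder. Groups of 2 libraries were too small to look for single outlying libraries.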

How the results depend on the processing

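The direction and call of the whisker comparison were recomputed under each alternative. Its 795 calls became 812 with edgeR's quasi-likelihood test, 770 with the DESeq2 1.42.0 Wald test, 1038 without a filter on low counts, and 665 to 718 when each whisker library was left out in turn, where the lone library is assumed to vary like the other groups. A log2 threshold of 2 left 268 calls and no fold threshold 3389, by construction. The 1506 differences from the other cultures became 643 and 4971 with these thresholds, and 1295 to 1407 without single libraries. In the same order of thresholds the calls of the other cultures were 1233 and 7792 in bladder, 725 and 5532 in trachea, 682 and 5167 in vagina, and 885 and 6506 in thymus. With the replicate number as a block, 815 genes were called in whisker cells and 1538 in the difference, and 850 in the fit of only the 4 whisker libraries with the block, against 779 without it. The deviations of same-numbered whisker libraries correlated at 0.0371, which cannot exclude that replicate numbers pair the samples. The share of reads on no gene was 10.7% before and 9.76% recovered in replicate 1, and 13.4% and 12.7% in replicate 2. Whether same-numbered libraries were handled together was not tested. The block moved no count by over 1.5 times. Of 97 named genes called, 76 kept their call under all 13 alternatives, 21 lost it under at least 1, and 0 were reversed. The 21 genes are each named in the text with an alternative under which the call was lost. Wnt3 and Acan could not be tested under the stricter filter. Changes of genes with few reads, such as Bnc2 (log2 fold change from -7.19 to -5.78), are known in direction better than in size.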

Other observations

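Ion channels and transporters were lower in 9 of 34 cases and higher in 0, with a median log2 fold change of -0.25. Slc15a1, which carries small peptides into cells, fell from 7.86 and 8.25 CPM to 2.49 and 1.43 CPM (log2 fold change -2.10, standard error 0.37, adjusted p = 0.000591). Atp6v0a4, a subunit of the proton pump, fell from 30.1 and 26.9 CPM to 10.4 and 9.25 CPM, and Slc1a3, a glutamate transporter, from 28.2 and 29.8 CPM to 9.12 and 10.9 CPM. Slco1a2, a carrier of organic anions, went from 46 and 33 reads to 12 and 8 reads. Piezo2, the channel of light touch, was called on 20 and 25 reads before and 4 and 6 after, and lost its call without the first recovered library (adjusted p = 0.0625).

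Adhesion and guidance genes were called in 3 of 30 cases, a share below the 15.4% of all genes with a symbol. Sema3e, a secreted cue for axons and vessels, fell from 69.8 and 82.7 CPM to 19.1 and 22.3 CPM (log2 fold change -1.87, standard error 0.14, adjusted p = 7.57e-08). Ephb1, a receptor of ephrins, fell from 37 and 34 reads to 8 and 7 reads, and Ntng2, a netrin-like membrane protein, rose from 3.33 and 3.42 CPM to 7.46 and 7.74 CPM. Among 33 xenobiotic and redox enzymes 2 rose, 2 fell and the median log2 fold change was 0.04. These calls were also a smaller share than that of all genes with a symbol, so neither list is read as changed as a whole. Aldh3a1, an aldehyde dehydrogenase of surface epithelia, rose from 16.8 and 17.0 CPM to 53.3 and 52.4 CPM (log2 fold change 1.65, standard error 0.11, adjusted p = 2.05e-08). Cyp2s1, a cytochrome of epithelia, rose from 37.0 and 30.4 CPM to 76.0 and 68.8 CPM and lay near the fold threshold, with a log2 fold change of 0.96 without the second library before transplantation. Cyp1b1, which the aryl hydrocarbon receptor induces, fell from 40 and 33 reads to 5 and 6 reads, and Adh7 is given with the retinoid enzymes.

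Of the 795 called genes, 440 had no symbol here, and some of them fell by more than any gene with one at the same minimum of 5 CPM in the higher group. ENSRNOG00000030418 was at 17.7 and 16.8 CPM before and was left with 0 and 1 read after recovery. ENSRNOG00000008737 had 180 and 193 reads before and 0 after, at least 63.3-fold lower against a floor of 3 counts per library. Of the genes that rose, ENSRNOG00000030352 went from 0.873 and 0.375 CPM to 5.34 and 5.40 CPM, and ENSRNOG00000017283 from 10.2 and 11.7 CPM to 54.7 and 70.8 CPM (log2 fold change 2.52, adjusted p = 3.99e-09).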
